A study of Mus musculus with 48 samples.

Results

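The complement genes described here are *C1qa*, *C1qb*, *C1qc*, *C2*, *Cfb*, *C3*, *C3ar1*, *C5ar1* and *Serping1*, chosen by symbol from a count table of 49568 genes. All 9 were found, each in 1 line of the table. They were measured by RNA sequencing in RAW264.7, a virus-transformed mouse macrophage line that stands for 1 cell source. Cells received PBS, IFN-γ at 5 ng/ml, a synthetic peptide at 100 µg/ml, or peptide together with IFN-γ, and were harvested at 72 h. The peptides span residues 65 to 79 of human HLA-DRβ chains and are called 65-79*LE (lupus risk allele), 65-79*SE (rheumatoid arthritis risk allele) and 65-79*PE (protective alleles), here LE, SE and PE. The 8 groups are therefore PBS, LE, SE, PE, IFN-γ, LE+IFN-γ, SE+IFN-γ and PE+IFN-γ, and 24 libraries that the labels name by a letter, 3 per group, carry the results below.

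Complement is a cascade of serum and cell surface proteins that tags targets for uptake and recruits leukocytes. C1q, made of A, B and C chains, recognises antibody complexes and dying cells and starts the classical pathway. Classical and alternative convertases cleave C3, and the released anaphylatoxins act on receptors of myeloid cells. Macrophages are a main source of C1q, while the liver supplies most circulating C3, and inherited C1q deficiency is a strong risk for lupus.

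Letter-labelled libraries held 16.5 M to 26.9 M counts (M for mega). A score over 20 IFN-γ target genes, the mean of log2(CPM + 0.1) where CPM is a count divided by the library total in M, was 1.26 to 1.54 in the libraries labelled without IFN-γ and 5.73 to 6.31 in those labelled with it, so all 24 fitted their labels. The other 24 libraries, which the labels name by HLA and a number, went against the IFN-γ label in 12 of 24 by the same score and enter no result here except where named. Of 8 macrophage markers, 7 were over 1 CPM in every letter-labelled library. The summed level of the 8 was 9458 to 12066 CPM without and 6642 to 8752 CPM with IFN-γ. *Lyz2* made up most of it, at 5214 to 7027 and 2961 to 4796 CPM. *Cd68* (1674 to 2165 and 1275 to 1593 CPM) and *Cd14* (687 to 964 and 443 to 627 CPM) were also lower with IFN-γ. *Adgre1* (65.9 to 108 and 110.4 to 314 CPM) and *Fcgr1* (107 to 204 and 289 to 435 CPM) were higher with it. The ranges of *Csf1r* and *Spi1* overlapped, and *Mertk* was at 0.408 CPM or less. The part of these shifts in the results below was not tested. Hepatocyte markers summed to at most 0.266 CPM, with *Ttr* and *Serpina1a* at 0, fibroblast markers to at most 1.84 CPM and lymphocyte markers to at most 0.816 CPM. In bulk RNA, fewer cells with a transcript and less transcript per cell cannot be told apart.

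The sequence just upstream of 2 members is shown because they carry the contrast described below, between genes near 0 and genes already on without IFN-γ. RefSeq promoter windows (GRCm38.p6, 250 bases before to 50 after the start) were held for 5 members, and the 250 upstream bases are printed 5′ to 3′ on the gene's own strand, with motif matches in capitals. The first, *C1qb*, is at chr4:136886201-136886450 on the minus strand. The second, *C3*, is at chr17:57228137-57228386 on the minus strand.
C1qb: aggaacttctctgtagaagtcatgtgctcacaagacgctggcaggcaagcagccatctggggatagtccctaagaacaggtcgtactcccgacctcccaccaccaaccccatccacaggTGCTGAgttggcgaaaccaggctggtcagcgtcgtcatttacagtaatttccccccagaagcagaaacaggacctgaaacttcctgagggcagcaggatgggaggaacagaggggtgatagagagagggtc
C3: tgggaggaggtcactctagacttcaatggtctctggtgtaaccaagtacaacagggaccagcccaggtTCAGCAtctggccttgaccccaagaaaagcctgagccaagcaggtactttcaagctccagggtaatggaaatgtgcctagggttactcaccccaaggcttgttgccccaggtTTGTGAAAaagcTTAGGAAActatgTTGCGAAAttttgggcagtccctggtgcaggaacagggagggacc
Capitals mark the letters TGCTGA of a MAF recognition element (MARE), on either strand, in *C1qb* from base -131 to -126, with -1 the base before the start. In *C3* they mark the same motif from -182 to -177 and 3 C/EBP matches (TTNNGNAA) starting at -70, -58 and -45. The C/EBP letters occur in 40.7% and the MARE letters in 19.1% of 27025 mouse promoter windows of this length. None of the 5 windows (*C1qb*, *C1qc*, *C3*, *C3ar1*, *C5ar1*) held the GAS letters TTCNNNGAA, found in 8.47% of all windows, or the NF-κB core GGANNTNCC, found in 14.8%. The ISRE core GAAANNGAA, in 8.57% of windows, was matched in that of *C5ar1*. Both strands were searched, and a match is a description of letters, not of binding.

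**Figure D1:**
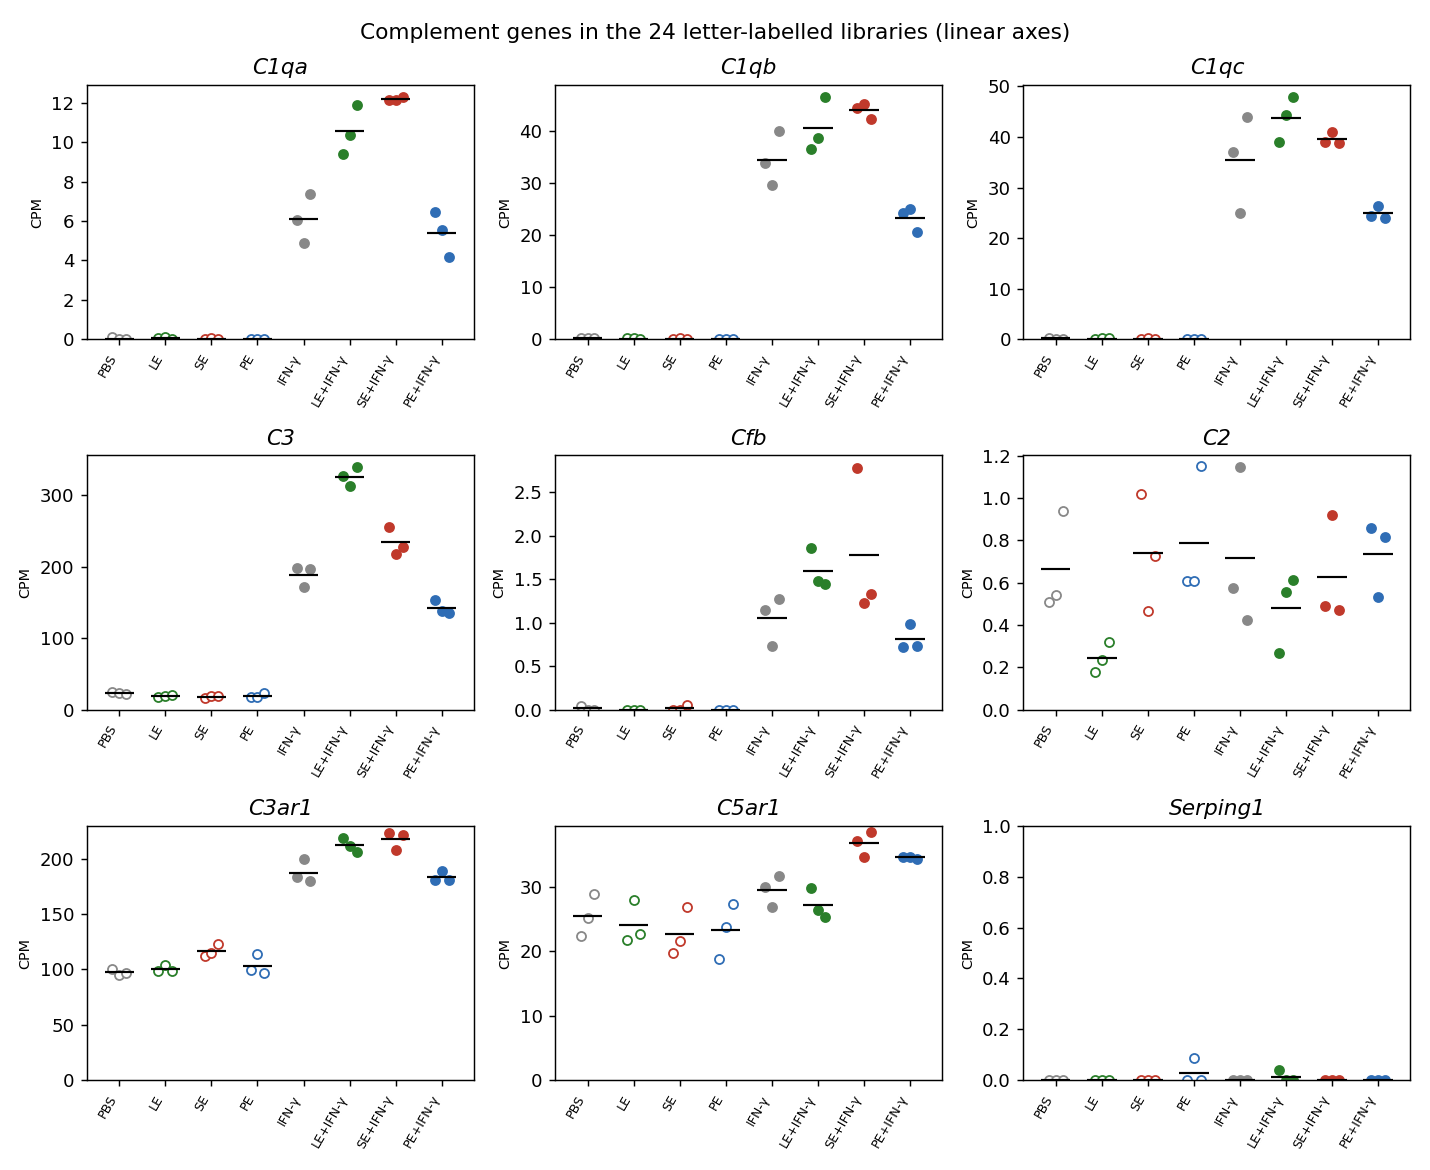
CPM of the 9 genes (linear y axes from 0, each panel with its own scale) in the 8 groups (x axis), with 1 point per library, open without and filled with IFN-γ, and the group mean as a line. The *C1q* chains and *Cfb* sit near 0 in all 12 libraries without IFN-γ, *C3* and *C3ar1* are higher in all 12 with it, *C5ar1* and *C2* overlap, and *Serping1* is near 0 throughout.

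The first comparison asked what IFN-γ alone did. The C1q chains went from a few counts to a clear signal, *C3* and the C3a receptor gene *C3ar1* rose from an existing level, and *C2*, *C5ar1* and *Serping1* did not pass the test or could not be tested. A gene was called at an adjusted p under 0.05 (edgeR quasi-likelihood test, Benjamini-Hochberg over all genes tested) with a fold change over 1.5. By this rule 2213 of 12242 genes (18.1%) were called for IFN-γ against PBS, and 6 of the 8 members tested, all 6 higher. Of these, *C1qa*, *C1qb*, *C1qc* and *Cfb* entered the test only through their IFN-γ libraries, so their count is given as a description.

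The genes of the 3 C1q chains lie next to each other within 18675 bases on chromosome 4 (GRCm38, minus strand): *C1qb* at chr4:136880129-136886187, *C1qc* at chr4:136889804-136893065 and *C1qa* at chr4:136895917-136898803. Across the 12 libraries without IFN-γ, *C1qa* had 0 to 2 counts, *C1qb* 0 to 5 and *C1qc* 0 to 5. *C1qb*, the B chain, had 5, 5 and 3 counts in the PBS libraries and 824, 722 and 847 in the IFN-γ libraries. *C1qc*, the C chain, went from 5, 2 and 2 counts to 905, 612 and 932. *C1qa*, the A chain, went from 2, 0 and 0 counts to 148, 120 and 156. No library without IFN-γ came near any library with it for these genes.

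As ratios of pooled CPM, with 95% intervals that cover counting error only, IFN-γ stood to PBS at 176 (103 to 332) for *C1qb*, 261 (137 to 570) for *C1qc* and 203 (55.8 to 1682) for *C1qa*. Model B, peptide + IFN-γ against the same peptide alone, gave ratios of 361 (175 to 899) for *C1qb* and 391 (190 to 974) for *C1qc* with LE. With SE they were 546 (234 to 1684) and 494 (211 to 1521). PE libraries held 0 *C1qb* counts, so against a floor of 3 counts over the group *C1qb* was at least 474-fold and *C1qa* at least 109-fold higher in PE+IFN-γ, while *C1qc*, with 2 counts in PE, had a ratio of 760 (210 to 6279). *C1qb* was at 5, 5 and 3 counts in PBS and 0, 0 and 0 in PE, too few for the filter. In a fit that kept such genes, and in 1 fit of all 8 groups, this was called as lower in PE. In the fit of all 8 groups *C1qb* met the filter only through libraries with IFN-γ. Both calls rest on those few PBS counts, and no effect of PE is read from them.

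Model B calls covered 6 members for LE, where 35.1% of 12947 genes tested were called, 7 for SE (26.3%) and 6 for PE (21%). The 6 were those called for IFN-γ alone, in each case higher, and the seventh for SE was *C5ar1*. Of these, *C1qa*, *C1qb*, *C1qc* and *Cfb* entered the tests only through libraries with IFN-γ, so these counts are given as a description.

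Levels among cells that all received IFN-γ are the second question, Model A in the terms of the study, each peptide + IFN-γ against IFN-γ alone. With LE, *C3* and *C1qa* were higher than with IFN-γ alone, with SE *C1qa* was, and with PE no member passed. The calls were 2 of 8 members for LE (15.5% of 12720 genes), 1 of 8 for SE (7.39%) and 0 of 8 for PE (0.629%). These 3 comparisons share the IFN-γ libraries and are therefore not independent.

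*C1qa* was at 6.07, 4.91 and 7.36 CPM with IFN-γ alone and at 9.40, 10.4 and 11.9 CPM in LE+IFN-γ. It was at 12.1, 12.2 and 12.3 CPM in SE+IFN-γ and at 6.46, 5.54 and 4.15 CPM in PE+IFN-γ. The LE and SE libraries lay above every IFN-γ library, and the PE libraries overlapped them. The log2 difference was 0.81 ± 0.153 (SE of the fit, n = 3 per group, edgeR adjusted p = 0.000279) for LE, 1.03 ± 0.152 (edgeR adjusted p = 4.97e-05) for SE and -0.15 ± 0.165 (edgeR adjusted p = 0.587) for PE.

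By group means *C1qb* had the same order as *C1qa*, and *C1qc* was higher in LE+IFN-γ than in SE+IFN-γ. *C1qb* was at 33.8, 29.5 and 40.0 CPM with IFN-γ, 36.4, 38.5 and 46.5 in LE+IFN-γ, 44.4, 45.1 and 42.2 in SE+IFN-γ, and 24.2, 25.0 and 20.6 in PE+IFN-γ. *C1qc* was at 37.1, 25.0 and 44.0 CPM with IFN-γ, 38.99, 44.3 and 47.9 in LE+IFN-γ, 39.04, 41.0 and 38.9 in SE+IFN-γ, and 24.3, 26.3 and 23.99 in PE+IFN-γ. The PE libraries were below all IFN-γ libraries for *C1qb*, but not for *C1qc*, where IFN-γ replicate 2 was among them. For PE the log2 differences were -0.54 ± 0.112 (edgeR adjusted p = 0.0102) for *C1qb* and -0.48 ± 0.141 (edgeR adjusted p = 0.0397) for *C1qc*, low enough in p but smaller than 1.5-fold. Without replicate 2 of each group both passed the rule, at -0.69 and -0.72. For LE neither passed (0.25 ± 0.108 and 0.32 ± 0.136, edgeR adjusted p = 0.0632 and 0.0555). For SE *C1qb* differed by 0.38 ± 0.108 (edgeR adjusted p = 0.0113), under the fold minimum, and *C1qc* by 0.19 ± 0.136 (edgeR adjusted p = 0.302).

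The share of each chain in the C1q total was computed per kilobase of exon (CPM per kb, GENCODE M21 lengths). *C1qa* took 10.5% ± 0.115 (SD, n = 3) of the sum with IFN-γ alone, 14.5% ± 0.0916 in LE+IFN-γ, 16.2% ± 0.499 in SE+IFN-γ and 13.0% ± 1.94 in PE+IFN-γ. All 9 libraries with a peptide, at 11.3% to 16.7%, lay above the 3 with IFN-γ alone, at 10.4% to 10.6%. For each of the 3 comparisons the two-sided exact permutation p was 0.1 (0.1 after adjustment over the 3), the smallest this design allows. The summed level of the chains was 55.8 ± 10.9 CPM per kb with IFN-γ, 70.0 ± 8.26 with LE+IFN-γ, 72.6 ± 1.81 with SE+IFN-γ and 39.5 ± 3.59 with PE+IFN-γ.

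**Figure D2:**
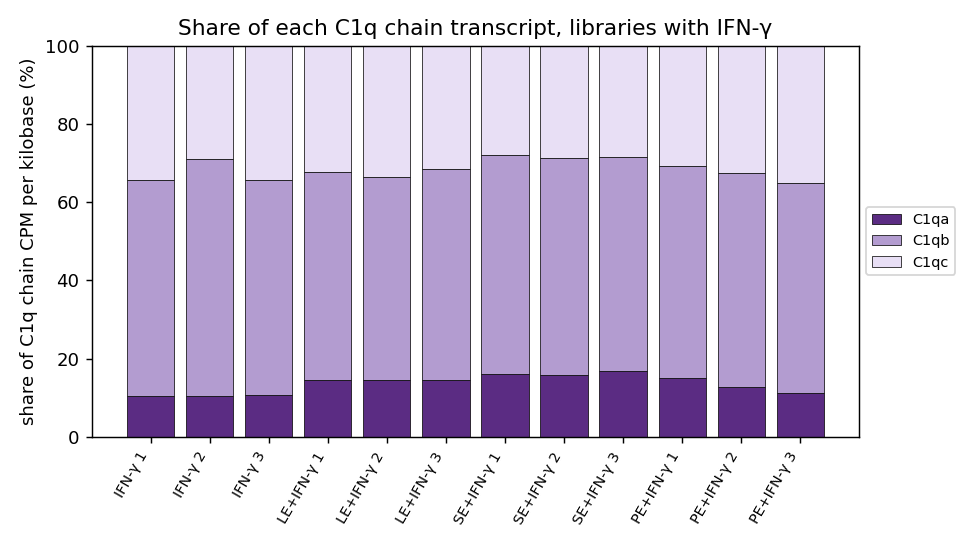
Share of each C1q chain gene in the sum of the 3 (CPM per kilobase of exon, percent, stacked bars to 100) in each of the 12 libraries with IFN-γ (x axis, group and replicate). The dark *C1qa* segment is 10.4% to 10.6% with IFN-γ alone and 11.3% to 16.7% in the libraries with a peptide.

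Among the convertase components, *C3* (chr17:57203970-57228136, minus strand), whose product is cleaved by both convertases, had the clearest dependence on the peptide. Without IFN-γ it was at 24.3, 23.5 and 21.9 CPM in PBS, 18.2, 19.4 and 21.02 in LE, 15.6, 18.7 and 18.7 in SE and 17.5, 17.9 and 23.5 in PE. With IFN-γ alone it was at 198, 171 and 197 CPM. Each library with IFN-γ was above each library without it, and the log2 difference between IFN-γ and PBS was 3.04 ± 0.0852 (edgeR adjusted p = 2.97e-10).

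LE+IFN-γ libraries had 326, 313 and 339 CPM of *C3*, SE+IFN-γ libraries 256, 218 and 228, and PE+IFN-γ libraries 153, 138 and 135. From low to high the order was PE+IFN-γ, IFN-γ, SE+IFN-γ and LE+IFN-γ, with no overlap between neighbours. Against IFN-γ alone the log2 difference was 0.80 ± 0.0711 for LE (edgeR adjusted p = 6.56e-08). It was 0.34 ± 0.0711 for SE (edgeR adjusted p = 0.00131) and -0.38 ± 0.0718 for PE (edgeR adjusted p = 0.00662), and neither difference reached 1.5-fold.

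A test of the interaction asked whether a peptide changed *C3* differently with and without IFN-γ. It gave 1.00 ± 0.143 on the log2 scale for LE (edgeR adjusted p = 9.85e-06) and 0.66 ± 0.144 for SE (edgeR adjusted p = 0.00222). For PE it was -0.24 ± 0.144 (edgeR adjusted p = 0.658). Without replicate 1 of every group the SE value was 0.50 and no longer passed (edgeR adjusted p = 0.0954). *C3* was the 1 member called for LE, where 18.9% of 13096 genes were called, and for SE (7.96%). For PE no gene was called (0%, edgeR), nor by DESeq2, while 1073 genes had an unadjusted p under 0.05. With no filter on low counts 61 genes were called and without replicate 2 it was 1, none of them a member. The interactions of the C1q chains and *Cfb* rest on groups with almost no counts, their fitted values depend on how zeros are treated, and they are not read here.

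*Cfb*, factor B, the protease of the alternative convertase, lies at chr17:34856374-34862518 and was near 0 without IFN-γ, with 1 count in 1 PBS library, 1 count in 1 SE library and 0 in the other 10. It had 28, 18 and 27 counts with IFN-γ, 49, 40 and 33 in LE+IFN-γ, 68, 28 and 34 in SE+IFN-γ and 16, 24 and 17 in PE+IFN-γ. Pooled CPM gave IFN-γ to PBS as 69.9 (12.2 to 2798) and SE+IFN-γ to SE as 111 (19.6 to 4430). LE+IFN-γ was at least 33.6-fold higher than LE and PE+IFN-γ at least 16.6-fold higher than PE, each against 3 counts over the group at 0. Against IFN-γ alone, LE+IFN-γ stood 0.62 ± 0.316 and SE+IFN-γ 0.79 ± 0.313 higher on the log2 scale (edgeR adjusted p = 0.109 and 0.0595). PE+IFN-γ stood at -0.33 ± 0.353 (edgeR adjusted p = 0.58). The SE value rose to 1.14 without replicate 3 and then passed (edgeR adjusted p = 0.0489), and it also passed with no filter on low counts (0.80, edgeR adjusted p = 0.0209).

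*C2*, the protease of the classical convertase, lies upstream of *Cfb* on the same minus strand (chr17:34862604-34898265), with 85 bases between its 3′ end and the start of *Cfb*, and had 4 to 28 counts in every one of the 24 libraries. It was called in no comparison. Between IFN-γ and PBS its log2 difference was 0.15, with a 95% interval (normal approximation) of -0.72 to 1.01. For *C2*, changes within that interval were not excluded. In LE it had 4, 5 and 6 counts against 12, 12 and 20 in PBS, a log2 difference of -1.39 ± 0.499 that did not pass (edgeR adjusted p = 0.242). A same-strand gene model, *Gm20547*, spans both genes: it shares 79.5% of the exon bases of *Cfb* and 42.8% of those of *C2* (GENCODE M21), and is at 0 in all 48 columns. How the authors' counting treated reads in shared exons was not tested, so the levels of *Cfb* and *C2* may be understated and are not ranked against the other genes.

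The anaphylatoxin receptors were expressed in every group. *C3ar1*, the C3a receptor gene (chr6:122847138-122856161), was at 100.5, 94.9 and 97.0 CPM in PBS and 183, 199 and 180 in IFN-γ, a log2 difference of 0.96 ± 0.0682 (edgeR adjusted p = 8.58e-07). All 12 libraries with IFN-γ (180 to 223 CPM) were above all 12 without (94.9 to 123 CPM). In Model B it rose by 1.05 with LE, 0.86 with SE and 0.77 with PE, each called. In SE alone it was at 112, 115 and 123 CPM, above every PBS library, but the log2 difference of 0.33 ± 0.0665 (edgeR adjusted p = 0.00986) was under the fold minimum. Adding LE to IFN-γ moved it by 0.19 ± 0.0506 and adding SE by 0.24 ± 0.0506 (edgeR adjusted p = 0.00414 and 0.00122), again under the minimum. With PE the 95% interval was -0.10 to 0.09.

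*C5ar1*, the gene of the C5a receptor (chr7:16246743-16259540), was at 22.4, 25.1 and 28.8 CPM in PBS and 30.0, 26.9 and 31.7 in IFN-γ, which overlap, with a log2 difference of 0.23 ± 0.113 (edgeR adjusted p = 0.13). It was at 29.9, 26.3 and 25.3 CPM in LE+IFN-γ, 37.1, 34.6 and 38.4 in SE+IFN-γ, and 34.6, 34.7 and 34.4 in PE+IFN-γ. The SE and PE libraries with IFN-γ lay above every library of the other 6 groups. Against SE alone (19.8, 21.5 and 26.8 CPM) SE+IFN-γ was 0.65 ± 0.126 higher on the log2 scale (edgeR adjusted p = 0.00016), a call that without replicate 1 fell under the fold minimum at 0.56. PE+IFN-γ against PE was 0.52 ± 0.126, under the minimum, and passed without replicate 3 at 0.66. In Model A the differences were 0.34 for SE and 0.26 for PE (edgeR adjusted p = 0.00228 and 0.046), both under the minimum, and -0.10 for LE (edgeR adjusted p = 0.294).

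*Serping1* encodes C1 inhibitor, which blocks the proteases C1r and C1s. It had 2 counts in 1 PE library, 1 count in 1 LE+IFN-γ library and 0 in the other 22, or 3 among 542 M counts. In the shallowest library a count of 0 allows a level of up to 0.182 CPM. It passed no filter and was not tested.

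Per kilobase of exon, the median over the 12 libraries with IFN-γ was 47.1 CPM per kb for *C3ar1* and 40.5 for *C3*. It was 34.4 for *C1qb*, 20.2 for *C1qc*, 12.8 for *C5ar1* and 8.06 for *C1qa*. Over all 12, the ranges of neighbours in this order overlapped. Without IFN-γ the order was *C3ar1* at 23.2 CPM per kb, *C5ar1* at 9.04 and *C3* at 3.71, with no overlap, and then the C1q chains, each at 0.208 or less. The level of *C3* relative to its receptor gene *C3ar1*, as a ratio per kilobase, was 0.200 ± 0.00980 in PBS (SD, n = 3). Peptides alone gave 0.163 ± 0.0133 in LE, 0.127 ± 0.01 in SE and 0.161 ± 0.0374 in PE. The ratio was 0.847 ± 0.112 in IFN-γ, 1.29 ± 0.0782 in LE+IFN-γ, 0.900 ± 0.0531 in SE+IFN-γ and 0.649 ± 0.0523 in PE+IFN-γ.

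The peptides were next compared with each other at the same dose and time, in 3 pairs that all received IFN-γ. PE stood apart from both others: *C1qa*, *C1qb*, *C1qc*, *C3* and *Cfb* were higher with LE than with PE and also higher with SE than with PE. The calls were 5 of 8 members in LE against PE (21.6% of 12720 genes), the same 5 in SE against PE (7.59%) and 0 in LE against SE (4.93%). These p-values were adjusted over all genes tested within a pair, not over the pairs.

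LE+IFN-γ exceeded PE+IFN-γ by 1.19 ± 0.0719 on the log2 scale for *C3* (edgeR adjusted p = 6.61e-10), 0.96 ± 0.156 for *C1qa* (4.23e-05), 0.78 ± 0.111 for *C1qb* (9.53e-06) and 0.80 ± 0.139 for *C1qc* (8.31e-05), with the edgeR adjusted p in brackets. SE+IFN-γ exceeded PE+IFN-γ by 0.72 ± 0.0717 for *C3* (edgeR adjusted p = 7.11e-07), 1.18 ± 0.154 for *C1qa* (1.45e-05), 0.91 ± 0.111 for *C1qb* (6.48e-06) and 0.67 ± 0.140 for *C1qc* (0.0012). For each of these 4 genes every LE and SE library was above every PE library. *Cfb* differed by 0.96 ± 0.329 for LE and 1.13 ± 0.326 for SE (edgeR adjusted p = 0.0182 and 0.0124). Without replicate 1 both were lost, at 0.76 and 0.57 (edgeR adjusted p = 0.0872 and 0.294), and without replicate 3 LE was lost at 0.95 (edgeR adjusted p = 0.0695).

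Between LE and SE, no member passed both thresholds. *C3* was 0.47 higher with LE, with an interval of 0.33 to 0.60 (edgeR adjusted p = 0.000137), and *C5ar1* was 0.45 lower, at -0.45 with an interval of -0.60 to -0.29 (edgeR adjusted p = 0.000407), both under the fold minimum on the log2 scale. The interval of the LE minus SE difference was -0.50 to 0.06 for *C1qa*, -0.34 to 0.08 for *C1qb*, -0.13 to 0.39 for *C1qc* and -0.15 to 0.05 for *C3ar1*. For *Cfb* it was -0.74 to 0.40 and for *C2* -1.25 to 0.46, and both intervals hold differences of over 1.5-fold in the direction of SE but not of LE.

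**Figure D3:**
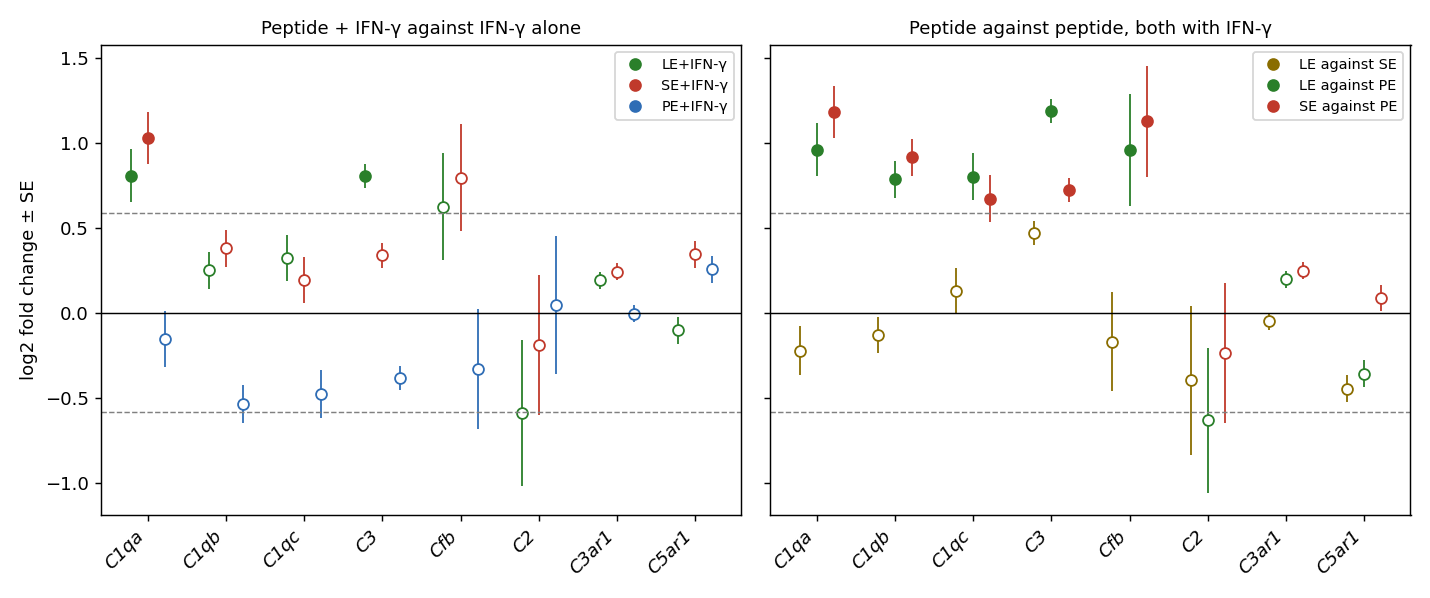
Log2 fold change (y axis, ± SE of the edgeR fit, n = 3 per group) of the 8 tested members (x axis) for each peptide + IFN-γ against IFN-γ alone (left) and between peptides with IFN-γ (right). Filled points passed both thresholds, dashed lines mark 1.5-fold, and the 10 filled points on the right are *C1qa*, *C1qb*, *C1qc*, *C3* and *Cfb* in the comparisons with PE.

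Without IFN-γ, peptides alone were tested on the 4 members with enough counts, *C2*, *C3*, *C3ar1* and *C5ar1*. None was called in LE (0.0242% of 12420 genes were), SE (1.92%) or PE (3.13%). On the log2 scale against PBS, *C3* stood at -0.20 ± 0.129 in LE, -0.32 ± 0.130 in SE and -0.16 ± 0.129 in PE (edgeR adjusted p = 0.427, 0.102 and 0.405).

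Over the 24 libraries, the genes with the most similar pattern (Pearson's r of log2 CPM, 9586 candidate genes with a mean of at least 5 CPM) were as follows, as a description. For *C1qa* they were *Gbp2*, *Cxcl9* and *Serpina3f* (r = 0.995, 0.995 and 0.994), and for *C1qb* *Gbp2*, *Dst* and *Cd86* (0.991, 0.99 and 0.99). *C1qc* was closest to *Serpina3f*, *Gbp4* and *Il18bp* (0.994, 0.994 and 0.992), *Cfb* to *Cxcl9*, *Gbp2* and *Sp140* (0.989, 0.988 and 0.988), and *C3* to *Slamf7*, *Serpina3f* and *Gbp4* (0.993, 0.993 and 0.992). *Gbp2* and *Gbp4* are interferon-induced GTPases and *Cxcl9* is an interferon-induced chemokine. *C3ar1* was closest to *Oasl2*, *B2m* and *Laptm4b* (0.989, 0.987 and 0.987). *C5ar1* reached 0.901 with *Srf*, 0.884 with *Ing2* and 0.882 with *Naif1*, and *C2* 0.677 with *Wash1*, 0.624 with *Mpi* and 0.6 with *Pwwp2b*. The 24 points fall into 12 without and 12 with IFN-γ, and every r over all 24 includes that step. Among the 12 with IFN-γ, *C1qb* and *C1qc* had r = 0.92, *C1qa* and *C3* 0.806, and *C3* and *C5ar1* -0.449.

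A list of 43 other complement genes placed the members in their pathway. For IFN-γ against PBS, 19 could be tested, 6 were higher and 2 lower, where 18.1% of all genes were called. *C1rb*, *C1s1* and *C4b*, among the higher, entered the test only through their IFN-γ libraries. *Clu*, among the lower, entered only through its PBS libraries, so these counts are a description. Those that rose included the C1 proteases, the enzymes that C1q activates. *C1ra* went from a mean of 3.26 to 37.5 CPM (log2 difference 3.53 ± 0.130, edgeR adjusted p = 2.68e-09). *C1s1* was at 0 in all 3 PBS libraries and had 182 counts over the 3 IFN-γ libraries, at least 58.1-fold higher against 3 counts. *C1rb* had a ratio of 10.1 (5.44 to 20.8), and *C4b*, the substrate of C1s, went from 0.328 to 3.50 CPM (log2 difference 3.41 ± 0.304). *C1ra* and *C1rb*, *C1s1* and *C1s2*, and *C4a* and *C4b* are near-identical copies, and only uniquely aligned reads were counted, so the split within each is uncertain.

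Of the receptors outside the members 6 were tested, with 1 higher and 1 lower, of the membrane regulators 3, with 1 higher, and of the soluble regulators 1, which was lower. *Itgax*, the CD11c chain of complement receptor 4, rose by 1.28 ± 0.157 on the log2 scale with IFN-γ (edgeR adjusted p = 6.64e-05), from 7.27 to 17.5 CPM. *Cd46*, a membrane cofactor, was 1.17 higher and *Clu*, which restrains the terminal complex, was -2.18 on the same scale, both at under 3 CPM. Both calls were lost without replicate 1 (0.75 and -1.80, edgeR adjusted p = 0.0708 and 0.0746), and that of *Cd46* also without replicate 2 (edgeR adjusted p = 0.0537). *Cd93*, a surface receptor once named for C1q, fell by 0.78 ± 0.156 on the log2 scale (edgeR adjusted p = 0.00207).

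Peptide alone gave 0 calls among the 16 tested of the list for LE and SE and 2 for PE, *Clu* higher (1.02) and *Cd93* lower (-0.64). Of all genes, 0.0242%, 1.92% and 3.13% were called for LE, SE and PE. For SE, *Clu* was called with a replicate block (0.94, edgeR adjusted p = 0.0219), by DESeq2 (0.96, adjusted p = 0.0355) and with no filter on low counts (0.96, edgeR adjusted p = 0.00595). *Clu* lost its call without any 1 of the replicates (edgeR adjusted p = 0.0782 to 0.204) and *Cd93* without replicate 1 or 2 (edgeR adjusted p = 0.19 and 0.0527). In Model A 20 could be tested, where 15.5%, 7.39% and 0.629% of all genes were called for LE, SE and PE. LE had 3 higher, the integrin chains of complement receptors 3 and 4, *Itgam* (0.80 ± 0.0643), *Itgax* (1.07 ± 0.120) and *Itgb2* (0.74 ± 0.0526). *Itgam* was at a mean of 287 CPM with IFN-γ, 493 with LE+IFN-γ, 381 with SE+IFN-γ and 238 with PE+IFN-γ. LE also had 2 lower, *Cd46* (-0.92 ± 0.220) and *Cd59a* (-0.60 ± 0.154), both membrane regulators. The *Cd59a* call fell under the fold minimum without replicate 2 or 3 (-0.55 for each). *Cr1l*, the third membrane regulator tested, had means of 208 CPM with IFN-γ, 139 with LE+IFN-γ, 136 with SE+IFN-γ and 196 with PE+IFN-γ. It was not called in Model A. Without replicate 1 it passed for LE (-0.60, edgeR adjusted p = 1.27e-05) and SE (-0.61, edgeR adjusted p = 3.44e-05).

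SE had *Itgb2* higher (0.79 ± 0.0527) and *Cd46* lower (-0.84 ± 0.220). PE had none. Between peptides, LE against PE gave 4 higher, *Itgam*, *Itgax*, *Itgb2* and *Cd93*, and 4 lower, *Cd46*, *Cd59a*, *Fcna* and *C8g*. The *C8g* call rests on low counts, 5 to 8 in LE+IFN-γ and 13 to 18 in PE+IFN-γ libraries. SE against PE gave *Itgam*, *Itgax* and *Itgb2* higher and *Cd46* and *Fcna* lower, and LE against SE gave none. In these pairs, in the same order, 21.6%, 7.59% and 4.93% of all genes were called. The *Cd46* call in SE against PE was lost without any 1 replicate, that in LE against PE without replicate 1 (edgeR adjusted p = 0.0538), and that of *Cd59a* in LE against PE without replicate 3 (-0.56). In Model B, LE had 9 higher and 3 lower, SE had 7 higher and 4 lower, and PE had 6 higher and 2 lower, beside 35.1%, 26.3% and 21% of all genes called. *C1rb*, *C1s1* and *C4a* entered these tests only through libraries with IFN-γ. *C1ra*, *C1rb*, *C1s1*, *C4b* and *Itgax* were among the higher and *Clu* among the lower for each peptide. The remaining Model B calls were of *Itgam* and *Itgb2* (higher for LE and SE), *Cd46* (higher for LE and PE), *C4a* (higher for LE), *Fcna* and *Cd59a* (lower for LE and SE) and *Cd93* (lower for SE and PE). Without replicate 1, *C4a* and *Cd46* lost the call for LE (edgeR adjusted p = 0.0511 and 0.101) and *Itgam* that for SE (0.45, under the fold minimum).

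The interaction was called for *Itgam* (0.84), *Itgax* (1.25) and *Itgb2* (0.60) with LE, where 18.9% of all genes were called. With SE it was called for *Itgax* (1.10) and *Itgb2* (0.71), beside 7.96% of all genes. It was negative for *Fcna* (-0.61 and -0.74) and *Cd59a* (-0.82 and -0.91) with LE and SE, and for *C1ra* (-0.94) and *Cr1l* (-0.60) with SE. That of *Itgb2* with LE fell to 0.55 without replicate 1 and that of *Cr1l* to -0.58 without replicate 2, both under the fold minimum. Of the 7 terminal pathway genes only *C8g* passed the filter of the fit of all 8 groups, at a mean of 0.676 CPM or less in each group. *Cfp*, properdin, which stabilises the alternative convertase, was at 197 to 319 CPM over the 24 libraries and was called in no comparison, except in LE against PE without replicate 1 (0.60, edgeR adjusted p = 3.3e-05).

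**Figure D4:**
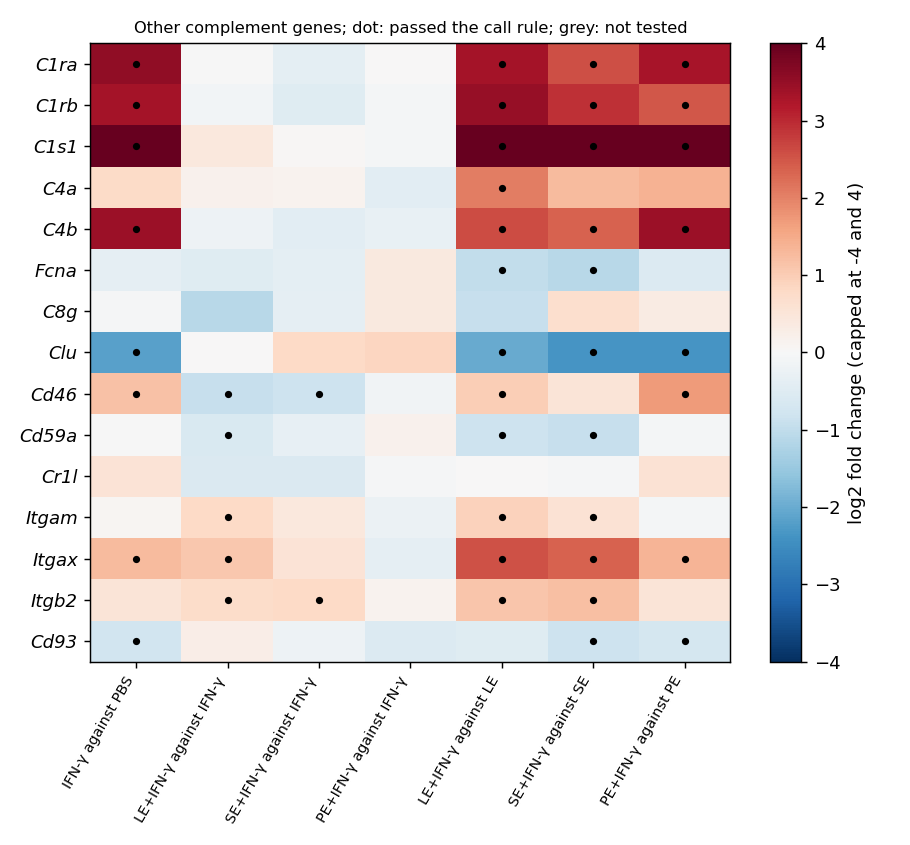
Log2 fold change (colour, capped at -4 and 4) of the 15 other complement genes called in any comparison (y axis) in 7 comparisons (x axis). Dots mark calls and grey would mark genes not tested, and *C1ra*, *C1rb*, *C1s1* and *C4b* are high in the 4 comparisons of IFN-γ with its absence and carry no dot in the 3 against IFN-γ alone.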

How the data were processed

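Stranded poly(A) libraries were read single-ended, and the authors counted uniquely aligned reads per gene with featureCounts on GENCODE M12 (GRCm38.p5). The aligner is not given in the sources used here. The deposited values are raw counts in 48 columns, each matched to 1 sample by name, and were used as deposited. The study describes its RAW264.7 data as coming from 2 independent experiments with 6 biological replicates. The labels do not tie libraries to cultures, so p-values measure the spread between these libraries, which may be partly technical. Replicate pairs all differed by more than sampling noise (lowest chi-square per degree of freedom 3.89 over 24 pairs).

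Tests used edgeR 4.0.16 in R 4.3.3 (TMM scaling, filterByExpr, quasi-likelihood F test, Benjamini-Hochberg adjustment over all genes of a fit), in fits of PBS with IFN-γ, of the 4 groups without and the 4 with IFN-γ, of the 6 peptide groups and of all 8 groups. The study itself used DESeq2 with the same thresholds of 1.5-fold and 0.05. Standard errors were taken as the log2 fold change over the square root of F, and 95% intervals from a normal approximation. The procedure was also run on simulated data, in which only LE+IFN-γ libraries carried changed genes. Those data held no IFN-γ step, so they do not bear on genes near 0 without IFN-γ. They also used the same dispersion for all genes, and their outcome is not used as support here. CPM used total counts and exon lengths came from GENCODE M21. Alternatives were DESeq2 1.42.0, RLE scaling, no filter, 1 fit, a replicate block, no fold minimum, leaving out replicates, and the HLA-labelled libraries. Text names all 9 members, each other complement gene called in any comparison, and the 3 most similar genes per tested member. A gene of the complement list is not reported here and enters none of its counts. Members and lists were chosen with earlier results of these data known, and genes given as background to a count (*Cfp*) were picked after their values were seen.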

Additional observations from a re-analysis of the deposited data

Results flagged for a closer look

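The change of *C3* with a peptide differed between cells with and without IFN-γ. The interaction was 0.999 on the log2 scale for LE and 0.657 for SE, by the edgeR test of the difference itself, and the SE value did not pass without replicate 1.

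The HLA-labelled libraries are outside the comparisons above, and 12 of these 24 went against their IFN-γ label by the score over IFN-γ target genes. Those labelled LE, with no IFN-γ, had *C1qb* at 65.2 CPM or more and *C3* at 277 CPM or more. Those labelled PE had *C1qb* at 70.8 CPM or more and *C3* at 294 CPM or more. The libraries labelled PBS had 0 counts of *C1qb* and at most 9.18 CPM of *C3*, and those labelled IFN-γ at most 0.0675 CPM of *C1qb* and 10.9 CPM of *C3*. No direction for a peptide or for IFN-γ is drawn from these libraries.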

How the results depend on the processing

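Refitted values in letter-labelled libraries were compared for each gene and comparison called in at least 1 setting. Of 352 values of members, 342 stayed on their side of the thresholds, 5 lost and 5 gained a call. Of 726 values of other complement genes 680 stayed, 21 lost and 25 gained a call. In both sets 0 changed sign where the original fit or the refit gave a call, and other changes of sign were not counted. Both sets include genes that entered a test only through the group where they were high, such as *C1qb*. For those genes a kept call is no check, so these counts are a description. The member calls were 6 for IFN-γ against PBS, 0 for the peptides alone, 3 in Model A, 10 between peptides, 19 in Model B and 2 for interactions. Each count but the first pools 3 comparisons. In the same order, the share of all genes called per comparison was 18.1%, 0.0242% to 3.13%, 0.629% to 15.5%, 4.93% to 21.6%, 21% to 35.1% and 0% to 18.9%. The member calls for IFN-γ against PBS and in Model B include *C1qa*, *C1qb*, *C1qc* and *Cfb*, which entered only through libraries with IFN-γ. Leaving out each replicate number gave 3 to 5 in Model A, 8 to 10 between peptides, 18 to 20 in Model B and 1 to 2 for interactions. Over all genes these refits called 4 to 2052, 515 to 3028, 2353 to 4494 and 0 to 2336 per comparison, of 12747 to 13175 tested. DESeq2 and RLE scaling gave the same numbers of member calls as the original fit. For the peptides alone, no filter and 1 fit of all 8 groups each gave 1 (*C1qb* in PE, on the few PBS counts given above) and no fold minimum gave 1 (*C3ar1* in SE). Model A gave 4 with no filter and 12 without a fold minimum. The HLA-labelled libraries alone, by their labels, gave 0 for IFN-γ against PBS, 12 for peptides alone, 12 in Model A, 14 between peptides, 9 in Model B and 4 for interactions. Those fits called 0 to 4065 of 13690 to 14748 genes tested per comparison. Both series together gave 0 for IFN-γ against PBS, in Model A, between peptides, in Model B and for interactions, and when the series was added as a blocking term 0, 1, 0, 0 and 0, with 8 for peptides alone. The joint fits called 0 to 271 genes per comparison and those with the block 0 to 1123, of 12917 to 14570 tested. Labels that 12 HLA-labelled libraries go against enter those fits. The labels do not say that a replicate number marks a shared batch. Deviations of same-numbered libraries of different groups had a median r of 0.117 (-0.377 to 0.539, over 0.1 in 43 of 84 pairs), beside -0.0626 for different numbers (over 0.1 in 45 of 168), and 16 of 24 libraries correlated best with their own number, a hint of pairing from the data and not from the design. A replicate block gave 6, 0, 3, 10, 19 and 2 member calls, as without it, and changed 1 call of another complement gene (*Clu* in SE). With 3 libraries per group, low counts limit what could be seen for *C2*, *Cfb* and *Serping1*. *C2* had at most 28 counts, *Serping1* at most 2, and *Cfb* at most 1 without and 16 to 68 with IFN-γ.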
